A study of Mus musculus with 4 samples.

Results

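The mouse major histocompatibility complex, the H2 complex of chromosome 17, was examined for H3K27ac-linked contacts without the stretch around Pou5f1. Its members were all pairs of anchors (genomic intervals between which read pairs were counted) with at least 1 anchor over 33900000 to 35440000 or 35610000 to 37300000 of chromosome 17 (GRCm38), and with no anchor over 35450000 to 35600000. They were 5151 of the 1513030 pairs in the table, and they had 128 of its 56554 anchors inside the complex. Each pair is called a loop below, whatever its count. The assay was HiChIP, which ligates DNA ends that lie close together in fixed nuclei and enriches them with an antibody, here against H3K27ac, a mark of active promoters and enhancers. The libraries came from mouse embryonic stem (ES) cells of 2 inbred strains, C57BL/6J (B6; lines B6 4-1 and B6 5-1) and DBA/2J (D2; lines D2 2-9 and D2 5-5), with 1 library from each line. Every line was of its strain's own genotype, with no stated allele or treatment that differed between strains, and all were grown in serum with LIF and the inhibitors PD0325901 and CHIR99021. The labels call the lines biological replicates, with 2 lines per strain. A standard error (SE) below comes from the fitted count model, which pools variability over many features. It is not the spread between the 2 lines alone. The embryos' number and sex are not given in the sources used here.

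The complex is read in 3 classes. Class I genes encode the heavy chains that show cytosolic peptides to CD8 T cells (the classical H2-K1 and H2-D1) and many related non-classical chains of the Q, T and M groups. Class II genes encode the paired chains that show endocytosed peptides to CD4 T cells, with the Tap, Psmb and DM genes of peptide supply and loading in the same stretch, and class III holds complement, cytokine, heat shock and many housekeeping genes. Class I levels are low in undifferentiated ES cells and class II chains are made mainly by professional antigen-presenting cells. The complex is among the most variable parts of the mouse genome: B6 carries the b haplotype and D2 the d haplotype, and the number and order of class I genes differ between haplotypes.

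Promoters are printed first for H2-K1, H2-Q6 and H2-Q7, class I genes whose anchors were lower in D2, for H2-T22, whose anchor was higher, for H2-D1, whose anchor did not pass the test, and for the class II gene H2-Eb1. H2-Bl, H2-T10 and BC023719, which fell further, are named below without a sequence. Each is the 250 bases before the RefSeq start, 5′ to 3′ on the gene's strand, in the C57BL/6J reference (GRCm38.p6). Capitals mark 2 motifs searched on both strands: the NF-kB consensus, which class I promoters hold in their enhancer A, and CCAAT, the box bound by NF-Y. The 2 motifs shared no letters in these windows.
H2-K1: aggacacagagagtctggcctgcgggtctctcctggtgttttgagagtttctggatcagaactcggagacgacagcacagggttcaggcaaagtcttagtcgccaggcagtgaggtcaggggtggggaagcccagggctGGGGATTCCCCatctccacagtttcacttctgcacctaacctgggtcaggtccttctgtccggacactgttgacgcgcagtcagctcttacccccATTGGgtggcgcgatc
H2-D1: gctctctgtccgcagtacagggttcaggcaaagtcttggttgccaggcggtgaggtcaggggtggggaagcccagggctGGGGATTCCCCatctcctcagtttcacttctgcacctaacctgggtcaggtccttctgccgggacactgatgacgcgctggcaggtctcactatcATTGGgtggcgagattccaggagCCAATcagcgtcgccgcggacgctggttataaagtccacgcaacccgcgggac
H2-Q6: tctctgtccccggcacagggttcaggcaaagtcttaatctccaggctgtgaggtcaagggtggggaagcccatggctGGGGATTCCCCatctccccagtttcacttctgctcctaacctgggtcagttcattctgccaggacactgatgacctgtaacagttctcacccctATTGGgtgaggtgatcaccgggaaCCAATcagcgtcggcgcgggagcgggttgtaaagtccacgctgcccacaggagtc
H2-Q7: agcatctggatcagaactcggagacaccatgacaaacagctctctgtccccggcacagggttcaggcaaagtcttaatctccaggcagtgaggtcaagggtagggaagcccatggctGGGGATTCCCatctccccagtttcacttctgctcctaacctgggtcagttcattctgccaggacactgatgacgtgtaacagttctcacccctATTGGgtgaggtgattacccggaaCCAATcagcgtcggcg
H2-T22: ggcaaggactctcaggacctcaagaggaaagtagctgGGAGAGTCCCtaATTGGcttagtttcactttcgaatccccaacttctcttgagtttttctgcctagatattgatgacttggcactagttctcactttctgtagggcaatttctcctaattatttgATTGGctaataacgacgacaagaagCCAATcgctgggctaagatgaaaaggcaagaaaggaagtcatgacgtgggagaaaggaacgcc
H2-Eb1: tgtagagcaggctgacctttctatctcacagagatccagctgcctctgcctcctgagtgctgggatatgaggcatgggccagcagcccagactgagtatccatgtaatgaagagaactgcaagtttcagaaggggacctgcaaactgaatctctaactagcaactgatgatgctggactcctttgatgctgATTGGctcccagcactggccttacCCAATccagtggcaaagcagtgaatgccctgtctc
They lie at chr17:34000348-34000597 (minus strand), chr17:35262844-35263093, chr17:35424600-35424849, chr17:35438905-35439154 (plus strand), chr17:36042743-36042992 (minus strand) and chr17:34305617-34305866 (plus strand), in the order printed. The NF-kB consensus began 111 bases before the start of H2-K1, 171 before that of H2-D1, 173 before that of H2-Q6, 133 before that of H2-Q7 and 213 before that of H2-T22, and it was not in the window of H2-Eb1. Of 32851 promoter entries of RefSeq, over the same 250 bases, 7.25% held it, and 33.8% held CCAAT on either strand, which was in all 6 printed. H2-K1 and H2-D1 thus both hold the 2 motifs in the reference, on either strand. The box bound by NF-Y began 16 bases before the start of H2-K1, and 76 and 53 before that of H2-D1. The H2-K1 window ends soon after its box, so a second box past the annotated start would not be seen. The D2 letters of these windows were not used here, and a relation of the motifs to the contacts was not tested.

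The table's 4 count columns summed to 2908329 and 2800847 read pairs in B6 replicates 1 and 2 and to 2767882 and 2944258 in D2 replicates 1 and 2. D2 replicate 1 stood apart: it is the library whose name carries the mark 10cyc (8cyc in the others; unexplained in the labels), and its summed level over anchors of ES cell markers was 2519 CPM (the count scaled to the library total) against 1445 to 1650 in the other libraries. Of 10 ES markers, 7 had an anchor over a start site, and Klf2, Esrrb and Tfcp2l1 had none. Anchors were over 5 of 6 early endoderm and mesoderm markers (summed level 90.8 and 91.4 CPM in B6, 96.5 and 104 in D2), 2 of 6 fibroblast markers (45.7 and 45.0 against 49.5 and 46.5) and 2 of 6 immune cell markers (87.3 and 89.6 against 72.6 and 80.5), with none over, among others, Ptprc, Ciita, Csf1r, Col1a1, Col1a2, Col3a1 or Twist2. Many results that rest on D2 replicate 1 are given with and without it, but not all. A bulk library cannot tell fewer cells with a contact from fewer contacts per cell.

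Class II had fewer contacts in D2 and classes I and III did not separate the strains. Loops of class II took 316 and 321 CPM in the B6 libraries and 242 and 226 in the D2 libraries. Both D2 libraries lay below both B6 libraries, and the D2 mean was 73.6% of the B6 mean. Class I loops took 2689.5 and 2676 CPM in B6 and 2714 and 2406 in D2. Class III loops took 1435 and 1380.3 in B6 and 1620.01 and 1344 in D2, so the strains overlapped in both. The overlap rested on D2 replicate 1, as D2 replicate 2 lay below both B6 libraries in both classes. Without D2 replicate 1 the log2 ratio of class I was -0.16 (-0.07 with it). That of class III was -0.07 without it and 0.07 with it. Loops between classes took 808 and 747 CPM in B6 and 662 and 612 in D2, with no overlap. The summed immune marker level given above was also lower in both D2 libraries; of its 2 genes with an anchor, Cd3e had 31.6 and 31.4 CPM in B6 and 20.95 and 20.04 in D2, and Cd74 overlapped (55.7 and 58.2 against 51.7 and 60.5). The part of this in the class II result was not tested. With 2 libraries against 2, the exact two-sided permutation test cannot give a p under 0.333, which is the p of class II and of the loops between classes. The log2 ratio of class II was -0.44 over its 705 loops, but -0.13 over the loops with an authors' q-value under 0.01 in at least 1 library (126 of 705), and it was -0.54 over loops with both anchors in the complex. Between classes the same q-value filter left -0.16 of -0.29.

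Within class I the segments moved apart, as anchor ends show (each loop counted at each of its ends inside the complex). At the K end, the 100.3 kb up to the end of H2-K1, ends were fewer in D2, as in class II: 858 and 842 CPM in B6 against 678 and 537 in D2. The D and Q segment held few ends, 121 and 99.6 CPM in B6 and 66.8 and 92.7 in D2, again without overlap. The framework segment (2899.6 and 2869 against 3169 and 2837) and the T segment (617 and 578 against 654 and 558) overlapped between strains. The M segment was lower in both D2 libraries, 978 and 1018 CPM in B6 against 909 and 873 in D2.

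**Figure D1:**
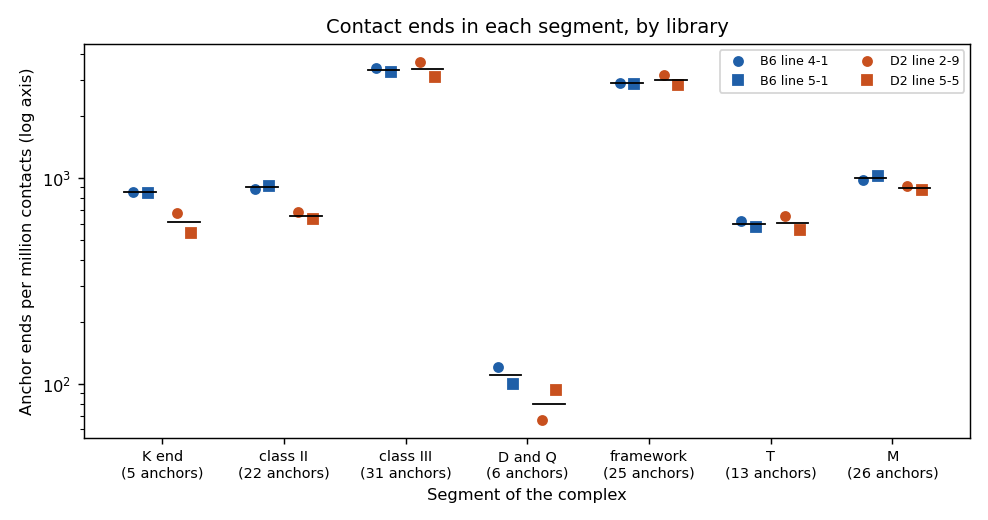
Anchor ends in CPM on a log axis for the 7 segments of the complex, 1 point per library (B6 blue, D2 orange; circle replicate 1, square replicate 2) and a black line at each strain's mean. The D2 points lie below the B6 points at the K end and in class II, D and Q, and M; in class III, framework and T they overlap.

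Loops were tested one by one with edgeR's quasi-likelihood test over the whole table, for the 108034 loops with at least 20 counts over the 4 libraries, and a loop or anchor is said to fall or rise in D2 where its Benjamini-Hochberg adjusted p is under 0.05. Over the whole genome, 1.43% of tested loops passed (0.797% lower and 0.634% higher in D2, or 861 and 685 loops; with TMM factors 1033 lower and 510 higher), and 548 of the 5151 loops of the complex had enough counts. Of these, 20 changed (3.65%), 15 lower and 5 higher in D2, with a median log2 fold change of -0.0012 against 0.08 over all tested loops. Class I held 19 of them among 287 tested. None of 31 class II loops and none of 160 class III loops changed, with 5 and 6 of them at an unadjusted p under 0.05. DESeq2's Wald test also called 0 in both, but gave an adjusted p for only 5 and 51 of them. The remaining changed loop, 1 of 70 tested between classes, joined the K end to class II. The counts behind these calls are small: 12 of the 20 loops had fewer than 50 counts over the 4 libraries. Leaving out a library lowered the number to 9 without either B6 replicate 1 or B6 replicate 2, and to 11 without D2 replicate 1, while 19 were called without D2 replicate 2. DESeq2 gave an adjusted p for 134 of the 548, without 17 of the 20, and called 1.

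Summed per anchor, the difference was broader. All 128 anchors had at least 20 counts, and 41 changed (32.0%), 36 lower and 5 higher in D2, beside 11.2% of the 51812 tested anchors of the genome (8.23% lower, 2.94% higher). Of the 20 loops that changed, 18 had at least 1 anchor that changed in the same direction. An anchor's count includes those of its loops, so this is partly built in. The share of all tested loops with such an anchor was not computed. A change of loops beyond that of their anchors was not tested. Class II gave 14 of 22 anchors, all of them lower, and class III 2 of 31, both lower. Class I gave 25 of 75, with 20 lower and 5 higher: 4 of 5 at the K end, 3 of 6 in D and Q, 5 of 25 in the framework segment, 7 of 13 in the T segment and 6 of 26 in the M segment. Median log2 fold changes were -0.67 in class II, -0.27 in class I and -0.01 in class III (0.02 with TMM factors), against -0.03 over all tested anchors. Both D2 libraries lay below both B6 libraries at 18 of the 22 class II anchors, 38 of 75 in class I and 12 of 31 in class III, and 28% of all tested anchors of the genome did so. The anchor count was 19 without B6 replicate 1 or without B6 replicate 2, 33 without D2 replicate 1 and 43 (12 higher) without D2 replicate 2. Class II had 4, 6, 11 and 10 called anchors in the same order, all among its 14. DESeq2 called 12 of the 41 anchors, and losses named below are those of edgeR unless DESeq2 is named. It called 2 in class II and 0 in class III, where edgeR had 3 class III anchors at an unadjusted p under 0.05.

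**Figure D2:**
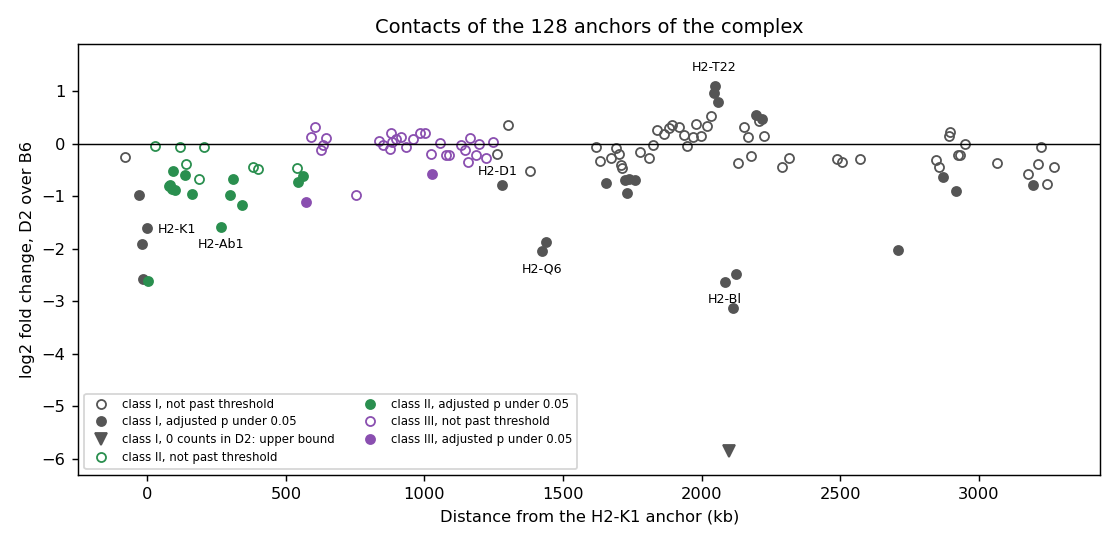
Log2 fold change of each of the 128 anchors against its distance from the H2-K1 anchor in kb, by class; filled points passed the test, and the triangle is an anchor with 0 counts in D2 drawn at its bound of -5.84. Points around H2-K1 and through class II lie below 0, the class III points lie near it, and the T segment holds the highest points beside the lowest.

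At the K end 4 of the 5 anchors fell, H2-K1 among them. H2-K1, a classical class I heavy chain, had 115 and 89 counts in B6 and 36 and 31 in D2 at its anchor (chr17:33998060-34001471), and the strains were far apart. The H2-K1 log2 fold change of -1.60 (SE 0.24) had an edgeR adjusted p of 1.32e-09. The anchor over the pseudogene H2-K2 (chr17:33977307-33983549) had 266 and 197 counts in B6 and 58 and 65 in D2, a log2 fold change of -1.91 (SE 0.19). Between them, an intergenic anchor (chr17:33985044-33987313) had 118 and 108 counts in B6 against 18 and 20 in D2, a difference of -2.56 on the log2 scale (SE 0.29). All 3 anchors passed the test under each alternative run. The other K end anchor that fell, 6035 bp from Vps52, had 102 and 131 counts against 56 and 62, and was lost without B6 replicate 2 (adjusted p = 0.109).

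H2-D1, the other classical heavy chain, did not pass. Its anchor (chr17:35261694-35264574) had 101 and 79 counts in B6 and 77 and 81 in D2, close to each other (log2 fold change -0.19, SE 0.20; edgeR adjusted p = 0.678). The count of the H2-K1 anchor over that of the H2-D1 anchor, taken within each library, was 1.14 and 1.13 in B6 and 0.468 and 0.383 in D2. In B6 the 2 anchors had about equal counts and in D2 the H2-K1 anchor had fewer than the H2-D1 anchor, with the exact permutation p at its lowest possible value of 0.333.

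Of the called loops at the K end, 4 ran from a single wide anchor. This anchor (chr17:33879999-33957922) spans 77923 bp and the start sites of Tapbp (tapasin, which helps load class I molecules with peptide), Daxx, Rgl2, Rps18, Vps52 and other genes. Its own total was 1895 and 1832 counts in B6 and 1708 and 1404 in D2; it did not change (edgeR adjusted p = 0.221), but it passed at 0.00111 without D2 replicate 1. Of its 67 tested loops, 4 were lower and 0 higher in D2. It and an anchor of the T segment were picked for having the most called loops, so such counts are high by choice. The loop to the H2-K2 anchor, 61.5 kb away, had 83 and 76 counts in B6 and 23 and 19 in D2. This loop (log2 fold change -1.91, SE 0.30) had the smallest adjusted p of the complex, 1.09e-07 with edgeR. The total of the H2-K2 anchor, which includes the counts of this loop, had the same log2 fold change (-1.91).

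The neighbouring partners followed the H2-K2 loop. To the intergenic anchor the Tapbp anchor had 34 and 27 counts in B6 and 6 and 5 in D2 (log2 fold change -2.44, SE 0.50). To the H2-K1 anchor, 80.8 kb away, it had 26 and 20 in B6 and 9 and 2 in D2 (-2.04, SE 0.51), a call that was lost without B6 replicate 1 (adjusted p = 0.216) and without D2 replicate 2 (0.196). Just beyond H2-K1, at chr17:34003061-34005550 in the class II segment, it had 9 and 16 counts in B6 against 0 and 1 in D2. The B6 level in CPM was 25.0 times that of D2 (95% Clopper-Pearson interval 4.09 to 1027, counting error only); this call was lost without B6 replicate 2 (0.0973) and without D2 replicate 1 (0.0776).

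Partners on either side of that stretch did not pass, and their values had both signs. The next partner, the anchor over Ring1, Rxrb, Slc39a7 and H2-Ke6, 109.8 kb away, had 89 and 73 counts with the Tapbp anchor in B6 and 113 and 104 in D2. Both D2 libraries were above both B6 libraries, but the loop did not pass (log2 fold change 0.42, SE 0.24). The most-counted loop of class I, from the Tapbp anchor to that of Kank3, Ndufa7 and Rps28 outside the complex, had 287 and 260 counts in B6 and 330 and 259 in D2, with overlapping strains (0.11, SE 0.22). Other partners were lower in both D2 libraries. They included chr17:33967783-33970321 (34 and 60 counts in B6, 29 and 26 in D2), Cd320 (191 and 187 against 151 and 108) and CR974462.2 (21 and 16 against 5 and 7). Both D2 libraries lay below both B6 libraries in 18 of the 39 tested K end loops and above in 4. From the K end to class II it was 13 and 1 of 17, beside 17.9% and 23.8% of all tested loops of the genome. The 4 called loops of the Tapbp anchor led to the 4 neighbouring anchors from H2-K2 to just past H2-K1. The H2-K2 anchor also lost loops to the intergenic anchor (14 and 9 counts in B6, 1 and 2 in D2) and to the H2-K1 anchor (14 and 4 in B6, 0 and 2 in D2). These were called with all 4 libraries, but neither call held without B6 replicate 1 (adjusted p = 0.368 and 0.736) or without D2 replicate 1 (0.263 and 0.452), and the first was also lost without B6 replicate 2 (0.0835) and without D2 replicate 2 (0.0627).

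**Figure D3:**
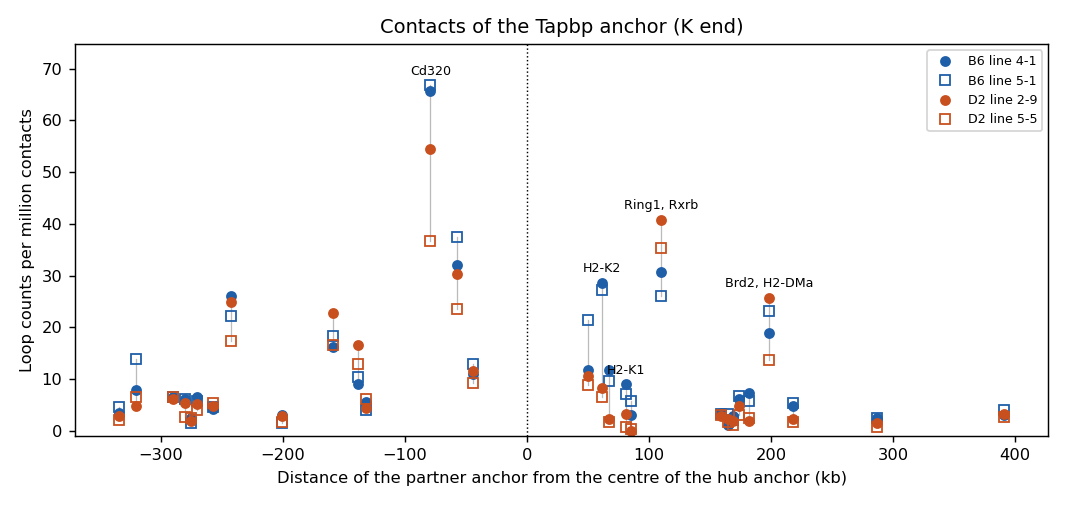
Loop levels in CPM between the Tapbp anchor and its nearer tested partners on both sides, by distance of the partner in kb, with 1 point per library and a grey line over their range. The Kank3 partner, at 88.0 to 119 CPM, is left out to keep the scale. The D2 points fall below the B6 points at H2-K2 and the next partners, and above them at Ring1 and Rxrb. They are also below at Cd320, a loop that did not pass.

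The Q group fell in part. H2-Q genes encode non-classical class I chains, among them Qa-2 (H2-Q6 to H2-Q9). H2-Q7 had 51 and 37 counts in B6 and 7 and 17 in D2 (log2 fold change -1.87, SE 0.37; edgeR adjusted p = 4.38e-06). H2-Q6 had 28 and 18 in B6 against 7 and 4 in D2 (-2.04, SE 0.53), a call lost without B6 replicate 1 (adjusted p = 0.0973). H2-Q4 had 61 and 45 in B6 and 27 and 47 in D2; it did not pass (-0.52, SE 0.26) but passed without D2 replicate 2 (0.0335). Neither H2-Q1 nor H2-Q2 had an anchor over its start, so 2 of the 3 measured Q genes fell and 0 rose. The next anchor past H2-D1, over the start of Gm18733, also fell (57 and 57 counts in B6, 22 and 44 in D2), but was lost without B6 replicate 1 (0.180), B6 replicate 2 (0.229) or D2 replicate 1 (0.475). Of the 33 loops within the D and Q segment, none reached 20 counts.

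The T segment held changes of both signs on neighbouring anchors. H2-T genes encode non-classical class I chains; H2-T3 is the thymus leukaemia antigen, H2-T23 is Qa-1 and H2-T22 and H2-T10 are ligands of gamma delta T cells. Of the 7 listed T genes, all had an anchor; 3 fell and 2 rose in D2.

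The genes that rose lay at both ends of the segment. H2-T22 (chr17:36040886-36045610) had 74 and 70 counts in B6 and 128 and 154 in D2. The strains did not overlap (log2 fold change 0.97, SE 0.19; edgeR adjusted p = 2.20e-05). H2-T3, whose anchor's midpoint lies just inside the M segment, had 302 and 290 in B6 and 434 and 432 in D2 (0.55, SE 0.14), but its call was lost without B6 replicate 1 (0.160) or B6 replicate 2 (0.164). H2-T23 (100 and 74 in B6, 120 and 130 in D2) and H2-T24 (84 and 70 in B6, 99 and 96 in D2) were higher in both D2 libraries but did not pass (0.52, SE 0.19, and 0.34, SE 0.20). With TMM factors H2-T23 passed (adjusted p = 0.0394).

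The other 3 anchors of the complex that rose lay beside these genes. The anchor next to H2-T22 had 33 and 27 counts in B6 and 49 and 80 in D2 (log2 fold change 1.10, SE 0.27). That of Gm11127, a class I-like gene, had 35 and 25 against 46 and 58 (0.79, SE 0.28), and that of Gm20392, beyond H2-T3, 143 and 160 against 213 and 205 (0.46, SE 0.16). D2 was above B6 in both libraries at each, but the edgeR calls were fragile. The first was lost without B6 replicate 2 (adjusted p = 0.0760) or D2 replicate 2 (0.0954), and the second without B6 replicate 1 (0.103), B6 replicate 2 (0.460) or D2 replicate 2 (0.170). The third was lost without B6 replicate 1 (0.549), B6 replicate 2 (0.188) or D2 replicate 1 (0.144).

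Between these ends lay a block of 4 anchors that were low in D2 or without a count. H2-Bl had 112 and 105 counts in B6 and 15 and 20 in D2 (log2 fold change -2.62, SE 0.30; edgeR adjusted p = 4.20e-20). BC023719, at an anchor shared with the pseudogene H2-T-ps, had 52 and 55 in B6 and 5 and 7 in D2 (-3.13, SE 0.47). H2-T10, with Gm19684, had 112 and 68 in B6 and 13 and 19 in D2 (-2.48, SE 0.31). All 3 calls held under each alternative run. The fourth anchor (chr17:36094572-36100952), over the start of Gm8815, had 88 and 84 counts in B6 and 0 and 0 in D2. Against a floor of 3 counts over both D2 libraries it was at least 57.4-fold lower in D2, and it had the smallest adjusted p of the complex's anchors (2.54e-37).

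A wide anchor in the middle of the T segment had loops to both kinds of partner. It spans chr17:36139119-36163812, over 4 non-coding or pseudogene starts (2410017I17Rik, Gm10499, Gm17782 and Gm6659). Its total was 661 and 615 counts in B6 and 896 and 694 in D2, and it did not pass (0.32, SE 0.13; edgeR adjusted p = 0.105). Of its 34 tested loops 3 fell and 3 rose, and it was picked for having the most called loops of the complex. It had 27 and 17 counts with the H2-T10 anchor in B6 and 1 and 2 in D2, a B6 to D2 ratio of CPM of 14.7 (95% interval 4.70 to 73.9). With the Gm8815 anchor it had 15 and 12 against 0 and 0, at least 9.00-fold lower in D2 at the floor of 3 counts. With H2-Bl it had 15 and 12 against 0 and 2 (ratio 13.5, 3.39 to 117), a call lost without B6 replicate 1 (adjusted p = 0.0791) and without D2 replicate 1 (0.137).

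In the other direction the same anchor was joined to H2-T22. That loop had 0 and 5 counts in B6 and 29 and 20 in D2 (log2 fold change 3.23, SE 0.70; edgeR adjusted p = 3.38e-06), and 0.0664 without B6 replicate 1. The loop to the anchor beside it, within a gene near Gm6034, had 1 and 2 in B6 and 9 and 16 in D2. It was lost without B6 replicate 1 (0.342), B6 replicate 2 (0.136) or D2 replicate 2 (0.0945). The loop to the Gm20392 anchor beyond H2-T3 had 15 and 13 in B6 and 42 and 26 in D2 (1.28, SE 0.36), and was lost without B6 replicate 1 (0.279), B6 replicate 2 (0.345) or D2 replicate 1 (0.571). Other partners of the same anchor had ample counts in both strains, such as Gm7030 (52 and 42 against 54 and 32), Gm8909 (75 and 69 against 128 and 97) and H2-T3 (48 and 53 against 107 and 71).

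**Figure D4:**
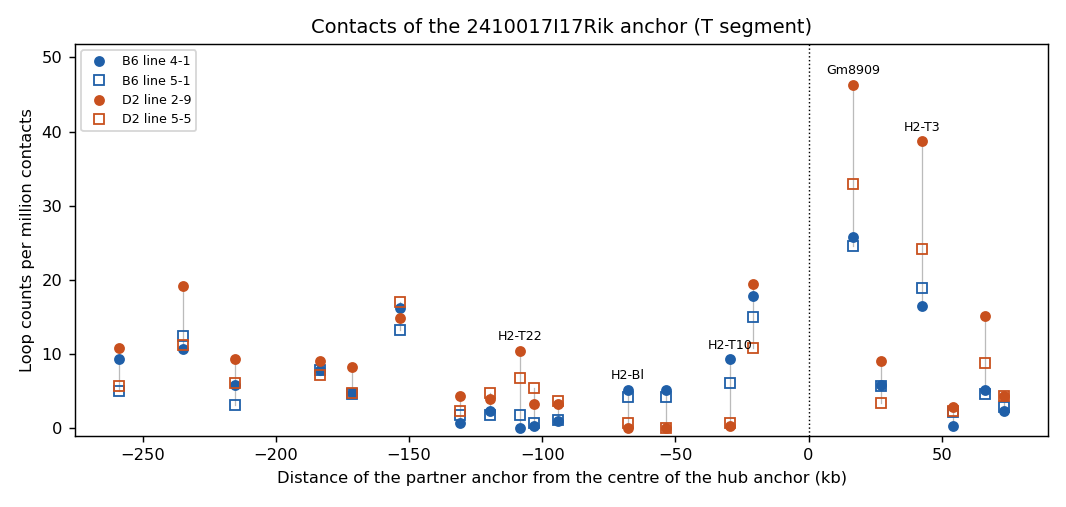
Loop levels in CPM between the 2410017I17Rik anchor of the T segment and its nearer tested partners on both sides, by distance of the partner in kb, with 1 point per library. The D2 points lie at or near 0 at H2-Bl and H2-T10, and above the B6 points at H2-T22, Gm8909 and H2-T3, of which H2-T22 passed the test.

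Loops that left the T segment gave the same 2 kinds. The anchor of Atat1, Mrps18b and Ppp1r10 in the framework segment had 2 and 0 counts with H2-T23 in B6 and 15 and 11 in D2 (log2 fold change 3.55, SE 1.10), lost without B6 replicate 2 (0.240) or D2 replicate 1 (0.0551). H2-T22 to H2-T3 had 3 and 3 against 11 and 19, lost without B6 replicate 1 (0.292), B6 replicate 2 (0.240) or D2 replicate 2 (0.201). The Gm8815 anchor had 10 and 12 counts with that of A930015D03Rik and Gm20508 in B6 and 0 and 0 in D2, at least 7.34-fold lower, and the edgeR call held under each alternative run.

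The framework segment held more class I contacts than any other segment. Its genes (Flot1, Tubb5, Mdc1, Nrm, Dhx16, Atat1, Abcf1 and others) are no class I genes but lie between the class I groups in a conserved order. Of 30 listed framework genes of the distal class I region, 23 had an anchor (14 anchors); 3 genes on 2 anchors fell and none rose, and those 3 lie in the M segment. The loop from Flot1, Mdc1 and Tubb5 to Nrm and Ppp1r18 had 175 and 168 counts in B6 and 241 and 181 in D2 (log2 fold change 0.30, SE 0.23). The loop from Dhx16 to Ppp1r10, Atat1 and Mrps18b had 159 and 135 in B6 and 245 and 175 in D2 (0.52, SE 0.23), and of the alternatives run it passed only without D2 replicate 2 (edgeR adjusted p = 0.00562) or with no count minimum (0.0436). Both loops were higher in both D2 libraries without passing. Without D2 replicate 1 the log2 fold change was 0.033 for the Flot1 loop and 0.208 for the Dhx16 loop. The size of both rises thus rested in large part on D2 replicate 1.

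The 5 framework anchors that fell lay nearer to the gap at Pou5f1. They ran from chr17:35651739-35656232, over Gm20483, to chr17:35755692-35759986, and both B6 libraries were above both D2 libraries at each. Their log2 fold changes were -0.67 to -0.94. The call held without each library only at chr17:35729360-35733183 (103 and 104 against 50 and 58); the other 4 were lost without B6 replicate 2 (0.0805 to 0.125), 3 of them without B6 replicate 1 (0.102 to 0.541) and 2 without D2 replicate 1 (0.173 and 0.220). Of the 3 loops that fell there, that between the Gm9573 anchor and an intergenic anchor 2708 bp from Ier3 had 17 and 30 counts in B6 and 4 and 10 in D2. It was lost without B6 replicate 2 (adjusted p = 0.577) or D2 replicate 1 (0.359). The other two had 37 and 27 counts in all, and each was lost whichever library was left out (adjusted p 0.0667 to 0.290 and 0.142 to 0.478).

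In the M segment 4 anchors fell, from chr17:36706154-36709050 to chr17:37183779-37204600. The 2 that rose, at H2-T3 and Gm20392, are given above. Ubd, a ubiquitin-like protein induced by interferon and TNF, shares an anchor (chr17:37183779-37204600) with the olfactory receptor Olfr94. It had 347 and 364 counts in B6 and 196 and 218 in D2, clearly apart. The difference was -0.78 on the log2 scale (SE 0.15; edgeR adjusted p = 6.55e-06), and the call held under each alternative run. Its loop to Gabbr1, a subunit of the GABA-B receptor, had 131 and 124 counts in B6 and 73 and 60 in D2 (-0.94, SE 0.24; edgeR adjusted p = 0.0143). That call was lost without B6 replicate 1 (0.380), B6 replicate 2 (0.313) or D2 replicate 2 (0.0557). Trim10 and Trim15, on 1 anchor, had 112 and 117 against 77 and 71 (-0.63, SE 0.20), lost without B6 replicate 1 (0.140), B6 replicate 2 (0.291) or D2 replicate 2 (0.0779). Of the 12 listed H2-M genes 2 had an anchor: H2-M3, which presents N-formyl peptides, had 32 and 21 counts in B6 and 16 and 23 in D2, and H2-M10.2 had 41 and 32 against 24 and 30. Neither passed (-0.44, SE 0.35, and -0.43, SE 0.30).

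All 22 class II anchors had a log2 fold change below 0, beside 53.8% of all tested anchors of the genome. Of the 22, 14 fell, while only 31 of the 705 loops had enough counts to be tested. Of 9 listed chains and helpers, 4 had an anchor over a start site, and 3 of these fell; H2-Aa, H2-Eb2, H2-Ob, H2-DMb1 and H2-DMb2 had none. H2-Ab1, the beta chain of the I-A molecule, had 59 and 64 counts in B6 and 21 and 20 in D2. This log2 fold change of -1.58 (SE 0.30) had an edgeR adjusted p of 2.23e-06, and the call held under each alternative run. H2-Eb1, the beta chain of I-E, had 193 and 175 in B6 and 124 and 107 in D2 (-0.67, SE 0.17), a call lost without B6 replicate 1 (0.135) and without B6 replicate 2 (0.0593). H2-Oa, a chain of the DM regulator DO, had 145 and 173 in B6 and 106 and 116 in D2 (-0.52, SE 0.18), lost without B6 replicate 1 (0.0983), B6 replicate 2 (0.582) or D2 replicate 1 (0.0751). The strains did not overlap at any of these 3.

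The most-connected anchors of the same stretch, and those of peptide supply, did not pass. The anchor of Brd2, a bromodomain protein, with a start of H2-DMa, had 435 and 517 counts in B6 and 480 and 431 in D2 (log2 fold change -0.06, SE 0.14; edgeR adjusted p = 0.863). Another start of H2-DMa lies in a separate anchor (chr17:34134871-34138311), which had 90 and 102 counts against 68 and 60 and passed narrowly (-0.58, SE 0.21; adjusted p = 0.0477); it was lost without B6 replicate 1 (0.155), B6 replicate 2 (0.498) or D2 replicate 2 (0.181) and with TMM factors (0.0664). Ring1, Rxrb, Slc39a7 and H2-Ke6, on 1 anchor, had 410 and 376 against 412 and 351 (-0.04, SE 0.14). Of the 5 genes of peptide supply and loading, Psmb8 had no anchor and none of the other 4 passed: Tap1 and Psmb9 shared 49 and 56 counts in B6 and 30 and 36 in D2 (-0.67, SE 0.27), and Tap2 had 55 and 52 against 48 and 55 (-0.06, SE 0.24). The 3 most-counted class II loops all ended at the Brd2 anchor, with 128 to 147 counts each, and none passed. They came from Ring1 (27 and 38 counts in B6, 45 and 37 in D2), from H2-Oa (31 and 39 against 29 and 33) and from the CR974462.2 anchor beside H2-Oa (30 and 42 against 27 and 29).

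**Figure D5:**
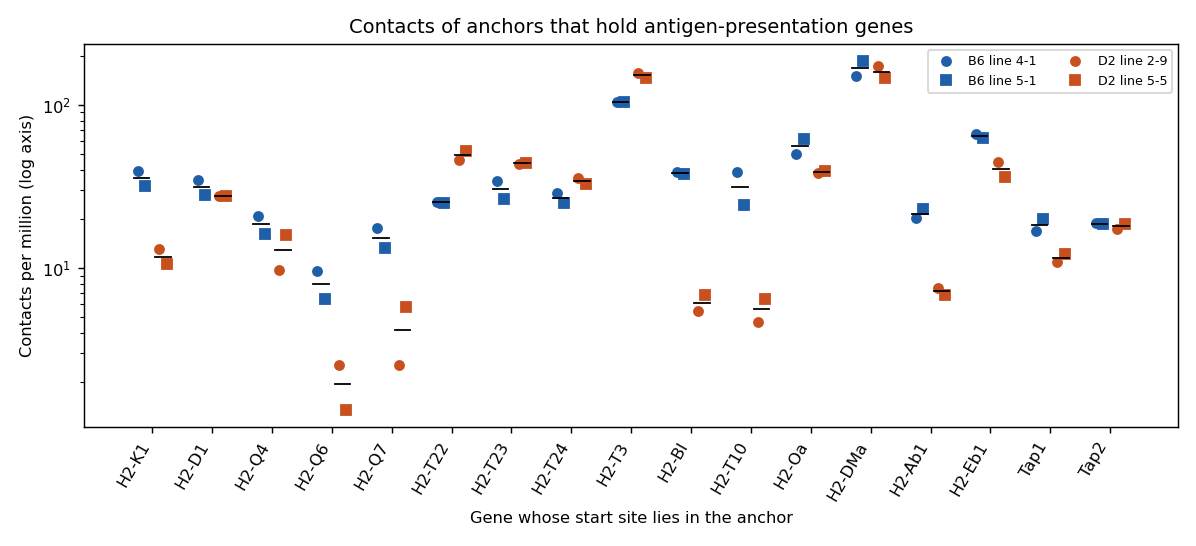
Anchor levels in CPM on a log axis at the anchors over class I, class II and peptide-supply genes, 1 point per library (B6 blue, D2 orange) and a line at each strain's mean; anchors differ in width, so levels are not to be compared between genes. The D2 points are lower at H2-K1, H2-Q6, H2-Q7, H2-Bl, H2-T10, H2-Ab1 and H2-Eb1, higher at H2-T22 and H2-T3, and close to B6 at H2-D1, H2-DMa and Tap2.

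Other class II anchors that fell lay between genes or within them. Just past H2-K1, the intergenic anchor at chr17:34003061-34005550 had 49 and 50 counts in B6 and 8 and 8 in D2 (log2 fold change -2.61, SE 0.43; edgeR adjusted p = 3.13e-10). Next to H2-Oa, the CR974462.2 anchor had 153 and 154 against 77 and 91 (-0.87, SE 0.19), a call lost with DESeq2 (adjusted p = 0.0586). The anchor 3435 bp from the H2-Eb1 start had 85 and 73 against 36 and 44 (-0.98, SE 0.24), and was lost without B6 replicate 1 (0.0797). That at chr17:34339000-34342152, nearest to Btnl2, had 60 and 43 against 23 and 23 (-1.16, SE 0.30), and was also lost without B6 replicate 1 (0.172). Notch4's start at the class III border had 208 and 178 against 111 and 140 (-0.62, SE 0.17), lost without B6 replicate 1 (0.244) or B6 replicate 2 (0.0562). Anchors that fell were thus spread from the K end across the class II segment to Notch4.

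Class III gave the fewest differences. Of 36 listed class III genes outside the named groups, 31 had an anchor (17 anchors), and by the most-counted anchor over each gene's starts 0 fell or rose; another start of Notch4 lies in the anchor that fell at the class III border. The heat shock genes Hspa1a, Hspa1b and Hspa1l share 1 anchor of 35593 bp, with 1107 and 1103 counts in B6 and 1224 and 1119 in D2 (log2 fold change 0.09, SE 0.13; edgeR adjusted p = 0.789). C2, a complement protease, shares an anchor with Ehmt2 and Zbtb12; it had 516 and 515 in B6 and 579 and 523 in D2 (0.10, SE 0.14). The strains overlapped at both. Cfb, C4a and C4b, and the cytokine genes Tnf, Lta and Ltb, had no anchor over a start site. Without D2 replicate 1 both log2 fold changes were slightly below 0 (-0.03 and -0.02).

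The most-counted class III loops did not pass either. From the Hspa1 anchor to Lsm2 there were 150 and 128 counts in B6 and 190 and 151 in D2 (0.30, SE 0.23, and 0.08 without D2 replicate 1). Between Msh5, Clic1 and Ddah2 and the Ly6g6d and Ly6g6e anchor there were 136 and 102 against 147 and 111 (0.12, SE 0.23), a log2 fold change that turned to -0.04 without B6 replicate 2 and -0.14 without D2 replicate 1. Between Csnk2b, Bag6 and their neighbours and Ddx39b there were 109 and 111 against 138 and 120 (0.23, SE 0.23, and 0.08 without D2 replicate 1). The strains overlapped in the loops of Hspa1 and Msh5. The class III anchors that fell were one within Notch4 (chr17:34571012-34573557; 50 and 49 in B6, 18 and 28 in D2; -1.10, SE 0.30) and that of Sapcd1 (114 and 139 against 80 and 89; -0.58, SE 0.19). Both calls were lost without B6 replicate 1 (adjusted p = 0.0523 and 0.0715), B6 replicate 2 (0.0597 and 0.542) or D2 replicate 1 (0.0911 and 0.0759).

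Of the contacts between classes, those of 3 pairs of segments were lower in both D2 libraries than in both B6 libraries. Loops from class II to class III took 210.1 and 205 CPM in B6 and 153 and 152 in D2 (73.5% of B6), and those from the K end to class II 141 and 139 against 108 and 85.3 (69.3%). Loops from class III to the D and Q segment took 72.9 and 59.6 against 36.5 and 47.2 (63.2%). In each the strains did not overlap, with the exact permutation p at its lowest possible value of 0.333. Loops from class III to the T segment were higher in both D2 libraries (23.7 and 23.9 CPM against 24.9 and 25.1). No genome-wide share was computed for sums over pairs of segments. Of all tested anchors of the genome, 28.0% had both D2 libraries below both B6 libraries and 21.5% had both above. From class III to the framework segment the strains overlapped (204 and 169.9 against 190.8 and 172). They also overlapped from the K end to class III (90.4 and 96.4 against 91.4 and 72.3) and in the remaining pairs between classes.

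In windows of 100 kb, with no choice of loops or anchors, 9 of 30 windows fell and 0 rose, beside 14.7% of 15413 tested windows of the genome (9.73% lower, 4.94% higher). They were those starting at 33.9, 34, 34.2, 34.3, 34.5, 35.7, 36.7, 37 and 37.1 Mb of chromosome 17. The window at 33.9 Mb had 2496 and 2357 anchor ends in B6 and 1876 and 1582 in D2 (log2 fold change -0.48, SE 0.10; edgeR adjusted p = 0.00114). That at 37.1 Mb had 376 and 396 against 217 and 238 (-0.76, SE 0.14). That at 36.7 Mb rested on 5 and 16 against 2 and 3. The windows at 33.9, 34.2, 34.3 and 37.1 Mb passed under each alternative run. The other 5 were lost without B6 replicate 2, with adjusted p-values of 0.0873 to 0.720, and 3 of them also without B6 replicate 1 (0.0922 to 0.600). Those at 34.0 and 37.0 Mb were lost without D2 replicate 2 as well (0.0574 and 0.169), and that at 36.7 Mb without D2 replicate 1 (0.164) or D2 replicate 2 (0.0606). Of the 7 class III windows none fell or rose, with 0 at an unadjusted p under 0.05. Windows of the T segment hid its mixture: the window at 36 Mb had 526 and 455 ends in B6 and 457 and 538 in D2 (0.02, SE 0.12), although it holds both H2-T22 and H2-Bl. The number was 4 without B6 replicate 2, and without D2 replicate 2 it was 11, with 3 higher.

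The reference sequence of the changed anchors differed between segments. The share of an anchor's 75-base stretches (the stated read length) that occur again on chromosome 17, on either strand, had a median of 1.16% over the 36 anchors that fell, 14.2% over the 5 that rose and 0.774% over the 87 that did neither. In the T segment it was 43.2% at the 3 anchors that rose, 11.6% at the 4 that fell and 18.4% at the 6 others. H2-Q6 and H2-Q7 had 46.2% and 34.4%, H2-K1 7.34% and H2-D1 4.17%. In class II the 14 anchors that fell had a median of 0.452% and the 8 others 0.693%. The deposited counts are on coordinates of the C57BL/6J assembly, and how reads were treated where D2 differs from it is not given in the sources used here; the part of this in the strain differences was not tested.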

How the data were processed

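H3K27ac HiChIP was measured in 2 B6 and 2 D2 libraries. The authors deposited read pair counts for every pair of anchors, not normalized, and for each library a p-value and q-value of each pair. HiC-Pro 2.11.4, the genome build mm10 and DESeq2 are named in the submitters' processing notes, without the role of each; the caller of the q-values and the read mapping settings are not given in the sources used here. All 2484 anchors of chromosome 17 that were checked start and end at GATC of GRCm38, so its GENCODE M21 annotation gave segments and start sites.

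Counts of loops, anchors (sum over their loops) and 100 kb windows of the whole table, each with at least 20 counts, were fitted with edgeR 4.0.16 (R 4.3.3) by its quasi-likelihood test with strain as the only term, library totals as offsets and Benjamini-Hochberg adjustment. Log2 fold changes are D2 over B6, with standard errors from that fit. Class levels are CPM computed from the deposited counts, with exact permutation tests (scipy 1.17.1). Alternatives were TMM factors, chromosome 17 totals, DESeq2 1.42.0, other count minimums, the replicate number as a block, each library left out, loops of at least 20 kb, both anchors inside, 50 kb windows and a q-value filter. The fit was tested on simulated data.

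The text names, per class, the 3 most-counted loops, the called loops and anchors with the smallest adjusted p, the anchor over each listed gene, and the called windows. The hub anchors, at Tapbp and in the T segment, were those with the most called loops. Their partners and the other called loops were chosen after their values were seen. The members and lists were chosen with earlier results of these data known. Library totals of 2767882 to 2944258 counts set the precision, and intervals and floors cover counting error only.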

Additional observations from a re-analysis of the deposited data

How the results depend on the processing

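Without 1 library at a time, 9 to 19 loops were called (20 with all), 8 to 17 of class I, 0 to 0 of class II, 0 to 1 of class III and 0 to 1 between classes. Anchor calls ranged from 19 to 43 (41), with 13 to 28 in class I, 4 to 11 in class II and 0 to 5 in class III, and window calls from 4 to 11 (9). The log2 ratios of D2 over B6 ranged from -0.18 to 0.014 for all loops, -0.16 to 0.017 in class I, -0.49 to -0.39 in class II, -0.067 to 0.20 in class III and -0.35 to -0.23 between classes.

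DESeq2, which gave no adjusted p to 414 of the 548 loops, called 1 loop (1 in class I, 0 between classes), 12 anchors (10 in class I, 2 in class II, 0 in class III) and 5 windows. With no count minimum 12 loops were called (11 in class I), and with at least 50 counts also 12 (6 higher; 11 in class I, 1 in class III, 0 between classes). TMM factors gave 2 loops between classes. Windows of 50 kb gave 14 of 52 (2 higher). The class II ratio was -0.54 with both anchors inside and -0.13 with the q-value filter, which left -0.16 between classes. The causes of these shifts were not tested.

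Signs turned for 6 named features that had not passed, over ranges without 1 library of log2 fold changes. The loop to Kank3 ranged from -0.12 (without D2 replicate 1) to 0.32, the loop from H2-Oa to Brd2 from -0.36 to 0.025 (without B6 replicate 2), and the Msh5 loop from -0.14 (without D2 replicate 1) to 0.35, with -0.04 without B6 replicate 2. The Brd2 anchor ranged from -0.21 to 0.10 (without B6 replicate 2; 0.05 without D2 replicate 2), the C2 anchor from -0.024 (without D2 replicate 1) to 0.21 and the Hspa1 anchor from -0.027 (without D2 replicate 1) to 0.19.

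Replicate numbers did not pair the libraries: deviations of same-numbered libraries from their strain means correlated at -0.002 across loops. With 2 libraries per strain, the value for crossed numbers (0.002) is its negative by construction. With the replicate number as a block 18 loops (5 higher), 41 anchors (26 in class I, 13 in class II) and 8 windows were called; 2 called loops, 2 called anchors and 1 called window were lost.

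Of the called features, 5 of 20 loops, 12 of 41 anchors and 4 of 9 windows passed under every alternative that tested them. Depth limits single loops: 12 of the 20 called had fewer than 50 counts. Over the tested loops of the complex, the squared difference between the D2 libraries averaged 1.58 times the variance of counting noise. Between the B6 libraries it averaged 1.16 times.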
